A study of Mus musculus with 3 samples.

Results

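The genes described here are the 78 protein-coding genes of mitochondrial ribosomal proteins in a deposited table of 54532 mouse genes, chosen by symbols that begin with Mrpl or Mrps and a digit. Of these, 49 carried an Mrpl symbol and 29 an Mrps symbol. RNA was measured in RAW264.7, an established macrophage line of mouse origin that turns into osteoclast-like cells, the cells that resorb bone, under the cytokine RANKL. All 3 libraries came from wild-type RAW264.7 cells given RANKL for 3 days. One had no TSH, the thyroid stimulating hormone, and is labelled 0 h. The others had 10 mU/mL of TSH for 2 h or for 24 h, and the labels do not say whether the library without TSH was collected after the same total time in culture. The table names its columns for TSH only T1 and T2, which leaves the hours of each open, so the names T1 and T2 are kept. Since each group is 1 library, differences have no replicate check and carry no p-value.

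Mitochondria carry their own ribosome, which translates the few proteins encoded by mitochondrial DNA, all of them parts of the oxidative phosphorylation system. Its ribosomal RNAs come from mitochondrial DNA, whereas its proteins are encoded in the nucleus, made in the cytosol and imported. Some of these proteins have bacterial relatives and others were added in the mitochondrial lineage. In osteoclasts, which are rich in mitochondria, this ribosome supplies the respiratory chain.

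The symbols matched the mitochondrial ribosome with some exceptions. By textbook assignment 51 members belong to the large subunit and 26 to the small subunit. Mrps30 and Mrps18a carry small-subunit symbols but sit in the large subunit. Mrps36 is in neither, since its protein is known as a part of the 2-oxoglutarate dehydrogenase complex of the tricarboxylic acid cycle. The rule also leaves out 5 ribosomal proteins with other symbols, Dap3, Ptcd3, Aurkaip1, Chchd1 and Gadd45gip1. The members lay on 17 chromosomes, with 11 of them on chromosome 11.

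Promoter windows from RefSeq on GRCm38.p6, reaching from 250 bases before the start to 50 after it, were matched to 69 of the 78 members by symbol. No window in the set used here carried the symbols Mrpl54, Mrpl4, Mrps28, Mrps34, Mrpl13, Mrps35, Mrpl15, Mrpl19 or Mrpl38. Motifs were sought on both strands for factors known from work on nuclear genes of mitochondria. The core of the NRF1 site, GCATGCGC, was in 8 member genes (11.6%), against 6.94% of 7599 protein-coding genes that passed the level filter and 3.05% of all 27025 genes with a window. The ETS motif CCGGAAG, bound by GABP among others, was in 26 (37.7%), against 23.5% and 9.93%. The YY1 motif AAGATGGC was in 12 (17.4%), against 6.17% and 3.19%. The E-box CACGTG was in 5 (7.25%), against 12.7% and 8.09%. Matches are a description of these letters, not of bound sites. The ETS motif lay within 100 bases of the start in 23 of its genes and the YY1 motif in 9.

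4 windows are shown, each from 250 bases before to 30 after the RefSeq start and written 5′ to 3′ on the gene's strand, with motif matches in capitals. Mrpl12 (chr11:120484387-120484666, plus strand) and Mrps12 (chr7:28741792-28742071, minus strand) stand for the large and the small subunit. Mrps27 (chr13:99344536-99344815, plus strand) was among the members with the highest TSH to RANKL ratios, and Mrpl32 (chr13:14613008-14613287, minus strand) held the most NRF1 matches.
Mrpl12: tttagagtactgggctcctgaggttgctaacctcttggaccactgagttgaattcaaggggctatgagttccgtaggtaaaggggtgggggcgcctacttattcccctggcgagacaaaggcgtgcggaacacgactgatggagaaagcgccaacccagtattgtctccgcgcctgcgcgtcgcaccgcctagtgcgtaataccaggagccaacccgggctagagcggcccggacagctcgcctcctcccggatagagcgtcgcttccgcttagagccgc
Mrps12: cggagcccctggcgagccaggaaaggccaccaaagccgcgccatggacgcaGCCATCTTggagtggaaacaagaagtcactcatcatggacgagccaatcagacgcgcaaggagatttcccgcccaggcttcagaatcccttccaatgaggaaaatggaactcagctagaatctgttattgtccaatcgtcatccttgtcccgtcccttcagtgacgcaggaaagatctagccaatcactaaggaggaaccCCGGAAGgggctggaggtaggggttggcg
Mrps27: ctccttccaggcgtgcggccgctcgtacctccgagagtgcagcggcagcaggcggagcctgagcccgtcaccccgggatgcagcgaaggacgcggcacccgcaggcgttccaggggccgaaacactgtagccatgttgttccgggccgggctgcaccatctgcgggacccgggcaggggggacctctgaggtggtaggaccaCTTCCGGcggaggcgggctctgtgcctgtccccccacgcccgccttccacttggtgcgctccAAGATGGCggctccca
Mrpl32: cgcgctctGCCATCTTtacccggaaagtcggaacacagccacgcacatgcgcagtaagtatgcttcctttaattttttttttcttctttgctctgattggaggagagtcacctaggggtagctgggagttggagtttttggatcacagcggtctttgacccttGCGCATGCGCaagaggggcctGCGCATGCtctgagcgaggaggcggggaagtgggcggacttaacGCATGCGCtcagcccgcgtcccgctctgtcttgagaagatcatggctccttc
In the Mrpl12 window none of the 4 motifs was found. The Mrps12 window holds a YY1 match and, 2 bases after the start, an ETS match. The Mrps27 window holds an ETS match 48 bases before the start and a YY1 match 15 bases after it. The Mrpl32 window holds 4 NRF1 matches, of which the first pair overlaps in 1 palindrome, and a YY1 match.

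Shared start regions were common among the members. In 26 of the 78 (33.3%) another protein-coding gene on the opposite strand started within 500 bases, compared with 16.0% of 9497 protein-coding genes past the filter and 8.93% of all 22046. Mrps12 faces Sars2, the mitochondrial seryl-tRNA synthetase, 172 bases away. Mrpl43 faces Twnk, the mitochondrial DNA helicase, 116 bases away. Mrpl36 overlaps at its start with Ndufs6, a subunit of complex I. Mrpl46 and Mrps11, proteins of different subunits, start on opposite strands within a shared stretch of 412 bases.

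Levels are FPKM as the authors deposited them, that is, reads scaled to gene length and to depth. Reads per gene, recovered from these values, summed to between 16156926 and 17390744 per library. The members together held 64883, 66875 and 69408 of these reads with RANKL alone, T1 and T2. For comparison, 73 genes of the cytosolic ribosome held 924413, 1022100 and 1039592 reads. Of the 78 members 77 passed the filter of a mean of at least 1 FPKM, which 11069 genes of the table passed. Their median level was 18.7, 19.3 and 18.9 FPKM, compared with 9.57, 9.56 and 9.57 FPKM for 9497 protein-coding genes past the filter.

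Mrpl52, encoding a large-subunit protein without a bacterial relative, was the member with the highest level, at 156, 154 and 152 FPKM for RANKL, T1 and T2. Its intervals lay apart from those of the next member in every library. Mrps21, a small-subunit protein of bacterial type, stood at 73.2, 76.1 and 68.4 FPKM. Mrpl2, near the peptidyl transferase centre, stood at 71.6, 71.3 and 67.8 FPKM, so Mrps21 and Mrpl2 were not set apart by counting. Mrpl34, Mrpl12 and Mrpl28 followed with means of 63.1, 57.9 and 56.9 FPKM.

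Mrpl12, whose protein forms the stalk that recruits translation factors, was measured at 58.4, 57.8 and 57.6 FPKM from 1444, 1485 and 1546 reads (chr11:120484613-120489065, plus strand). Mrps12, a protein of the decoding site, was measured at 11.7, 12.7 and 10.8 FPKM from 197, 221 and 197 reads (chr7:28739641-28741820, minus strand). Neither gene differed between any pair of libraries beyond counting error. The T2 to T1 ratio of Mrps12 was the second lowest, at 0.853, but its counting interval of 0.700 to 1.04 included 1.

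At the lower end, Mrpl33 was measured at 3.09, 3.44 and 3.54 FPKM, and Mrpl48, Mrps30, Mrpl32 and Mrps35 had means of 4.95, 5.22, 5.24 and 5.60 FPKM. The mean FPKM of Mrpl52 was 45.9-fold that of Mrpl33. In the order of mean FPKM only 17 of 76 neighbouring pairs were set apart by their counting intervals in at least 1 library. Of these, Mrpl52 above Mrps21 and Mrpl33 below Mrpl48 were apart in every library, and the others were spread along the order.

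Mrpl53, a protein of the large subunit near the stalk, had 0 reads in all 3 libraries (chr6:83109040-83109939, plus strand). A floor of 3 reads allows up to 0.235, 0.226 and 0.217 FPKM. Of its exon bases 88.0% are shared on the same strand with Gm42688, a longer gene over the same place, which had 4, 16 and 9 reads. How the authors counted shared reads is not given in the sources used here, so the value of 0 is uncertain.

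**Figure D1:**
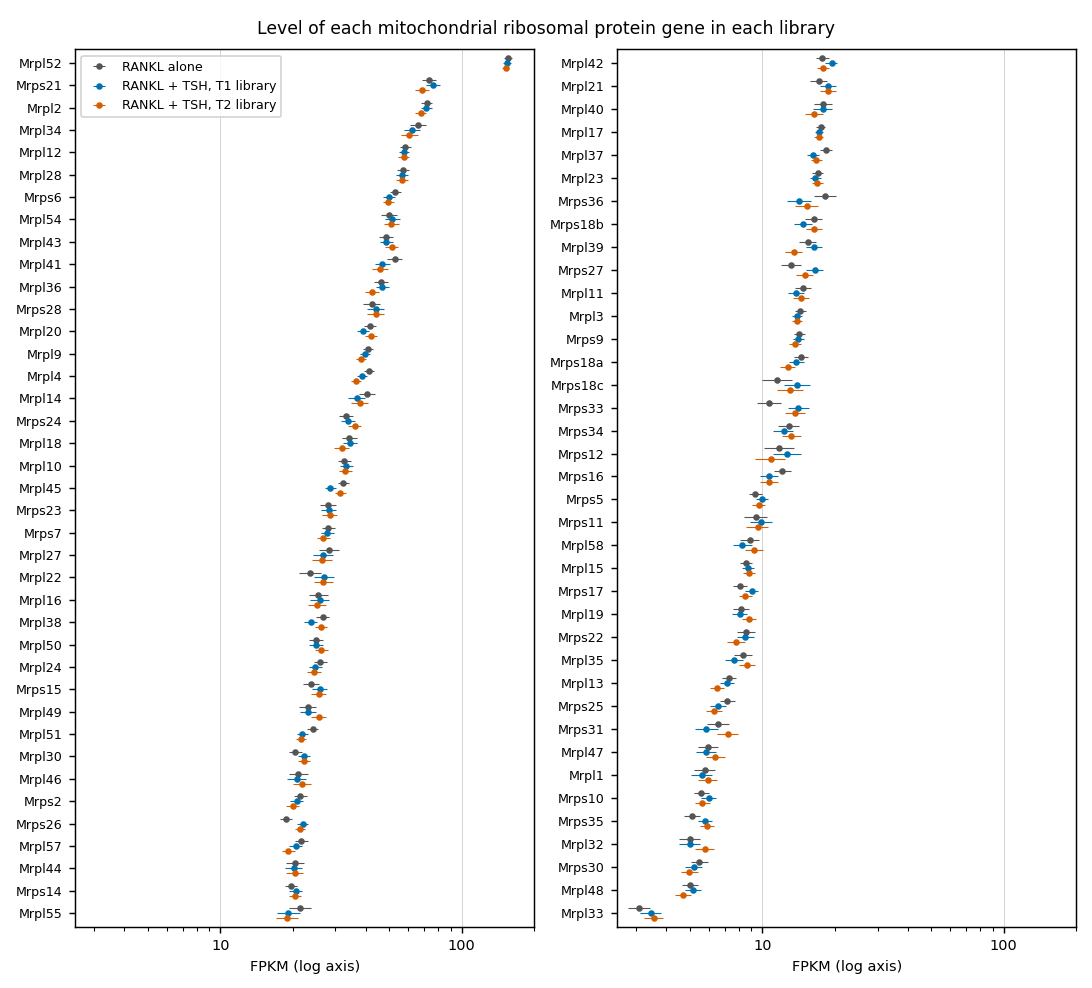
FPKM (log axis) of the 77 members past the filter in each library, in order of the mean, with exact 95% counting intervals from the reads. Mrpl52 stands alone at the top near 154 FPKM, Mrpl33 lies lowest, and the 3 libraries differ far less than the genes.

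Much of the order followed gene length. Across the 77 members log2 mean FPKM and log2 deposited length had a Pearson r of -0.76 and a Spearman rho of -0.75, compared with -0.27 and -0.24 across the 9497 protein-coding genes. These are correlations across genes, which are not independent replicates, and FPKM holds the length in its denominator. The recovered reads themselves had an r of 0.24 with length. The deposited length was at least 2 times that of the coding transcript in GENCODE M21 for 21 members. Set per coding transcript instead, a choice made after seeing the data, Mrpl52 and Mrps21 remained the highest, at 409 and 132 FPKM, and Mrpl30 moved from rank 32 to rank 3. Mrpl33, with a deposited length of 7326 bases and a coding transcript of 2178, moved from rank 77 to rank 68.

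**Figure D2:**
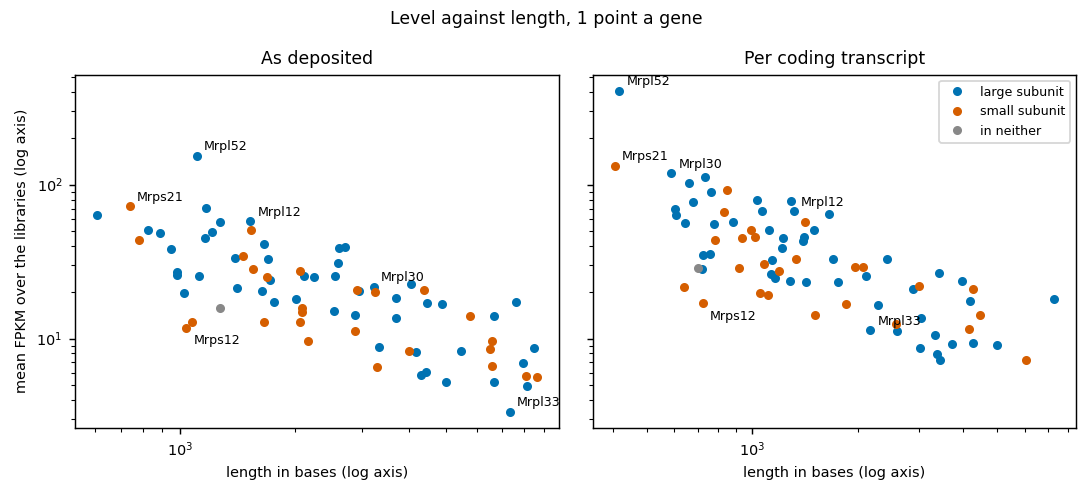
Mean FPKM over the 3 libraries against length, both on log axes, for the 77 members past the filter by subunit, with the deposited gene length on the left and the GENCODE coding transcript on the right. Longer genes sit lower in both panels, with r of -0.76 on each.

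The first comparison asks what differed between the T1 library and RANKL alone. A change here is the difference in log2(FPKM + 1), which understates changes of low genes. No member reached a change of 1. Of the 11069 genes past the filter 115 (1.04%) did, and of the 9497 protein-coding ones, the like of the members, 17 (0.179%) did, so that a count of 0 among 77 is near the background. The median change of the members was -0.015, beside -0.0014 over all genes tested, with 32 members above 0 and 45 below. The members' summed reads, scaled to depth, stood at 0.991 of RANKL alone (95% interval 0.981 to 1.002). In these bulk samples fewer cells of a type and less RNA per cell cannot be told apart.

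A member counts as beyond counting error where the exact 95% interval of its FPKM ratio leaves out 1. In T1, 8 members (10.4%) were higher and 7 (9.09%) lower. Over all genes tested 10.8% were higher and 12.2% lower, so these shares are near the background. When libraries were rescaled to the same total FPKM the split was 5 higher and 12 lower. The members' median was then -0.040, beside -0.024 over all genes, whose shares under this scaling were not computed. The balance of higher and lower members therefore depends on the scaling. The members' intervals reached a median of 0.15 to each side on the log2 scale, and less in genes with more reads. Both TSH comparisons share the library of RANKL alone, and their values are set side by side below without reading them as independent.

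Small-subunit genes made up 6 of the 8 members higher in T1. That is 23.1% of the 26 small-subunit members past the filter, beside 10.8% of all genes. The calls of Mrps33 and Mrps18c among them did not hold under every setting, as given below. Mrps33, a small-subunit protein without a bacterial relative, had 10.7, 14.1 and 13.7 FPKM. Its ratio was 1.32 (1.13 to 1.54) in T1 and 1.28 (1.097 to 1.49) in T2. The intervals of both TSH libraries to RANKL alone leave out 1, but the call depends on a copy described below.

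Mrps27, an RNA-binding pentatricopeptide repeat protein of the small subunit, had 13.1, 16.4 and 14.9 FPKM with RANKL alone, T1 and T2 (chr13:99344786-99415562, plus strand). Its ratio was 1.25 (1.105 to 1.42) in T1 and 1.14 (1.003 to 1.29) in T2. The library of RANKL alone was the lowest. Its exon bases overlap by 24.2% with 6430562O15Rik on the opposite strand, and the handling of strand is not given in the sources used here. Its head-to-head neighbour Ptcd2, 81 bases away, had T1 and T2 ratios of 1.01 (0.921 to 1.12) and 0.954 (0.866 to 1.05).

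Mrps26 had 18.7, 21.9 and 21.4 FPKM, which gave T1 and T2 ratios of 1.17 (1.09 to 1.26) and 1.14 (1.06 to 1.23). Mrps35 had 5.11, 5.78 and 5.91 FPKM and ratios of 1.13 (1.02 to 1.25) and 1.16 (1.05 to 1.28). Both encode small-subunit proteins without a bacterial relative, and both were lowest with RANKL alone. Mrpl30, a large-subunit protein of bacterial type, had 20.4, 22.3 and 22.2 FPKM and T1 and T2 ratios of 1.09 (1.003 to 1.18) and 1.09 (1.001 to 1.18), at the edge of its intervals.

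The intervals left out 1 in T1 but not in T2 for Mrps18c, Mrps17 and Mrpl42, with T1 ratios of 1.21 (1.003 to 1.47), 1.12 (1.02 to 1.23) and 1.09 (1.005 to 1.19). Their ratios in T2 were 1.13, 1.05 and 1.01, and T2 to T1 intervals of all 3 included 1. The T1 calls of Mrps18c, Mrpl30 and Mrpl42 were lost when libraries were rescaled to the same total. Mrpl22, which lines the exit tunnel, had T1 and T2 ratios of 1.14 (0.993 to 1.32) and 1.14 (0.991 to 1.31), so its intervals included 1.

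Mrps36, the dehydrogenase component, had the lowest ratios. It stood at 18.2, 14.2 and 15.2 FPKM with RANKL alone, T1 and T2 (chr13:100735955-100744659, minus strand). The ratio was 0.779 (0.667 to 0.909) in T1 and 0.837 (0.720 to 0.972) in T2. The library of RANKL alone was the highest, and T1 and T2 were not set apart from each other. Mrps36 has 5 near-identical pseudogenes elsewhere, which held 4, 3 and 5 reads in all.

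Of the other 6 members lower in T1, 5 encode large-subunit proteins listed as added in the mitochondrial lineage: Mrpl37, Mrpl38, Mrpl41, Mrpl45 and Mrpl51. They are 25% of the 20 such members past the filter, beside 12.2% of all genes lower in T1. Mrpl37 had 18.4, 16.1 and 16.7 FPKM, and T1 and T2 ratios of 0.879 (0.813 to 0.952) and 0.911 (0.843 to 0.984). Mrpl41 had 52.9, 47.0 and 46.0 FPKM, with ratios of 0.888 (0.800 to 0.986) and 0.869 (0.784 to 0.964). Mrpl51 had 24.2, 21.9 and 21.6 FPKM, with ratios of 0.905 (0.842 to 0.972) and 0.896 (0.834 to 0.962). In these genes RANKL alone was the highest library.

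Mrpl45, which sits at the exit tunnel on the side of the inner membrane, had 32.3, 28.6 and 31.5 FPKM. Its ratio was 0.885 (0.819 to 0.957) in T1 and 0.974 (0.904 to 1.05) in T2, and T1 was the low library. Mrpl38 likewise had its lowest level in T1, at 26.5, 23.7 and 26.2 FPKM, with a T1 ratio of 0.895 (0.821 to 0.976). Mrps16, a small-subunit protein of bacterial type, had 12.1, 10.7 and 10.7 FPKM. Its ratios were 0.883 (0.782 to 0.997) in T1 and 0.883 (0.783 to 0.995) in T2, and the T2 call was lost when libraries were rescaled.

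**Figure D3:**
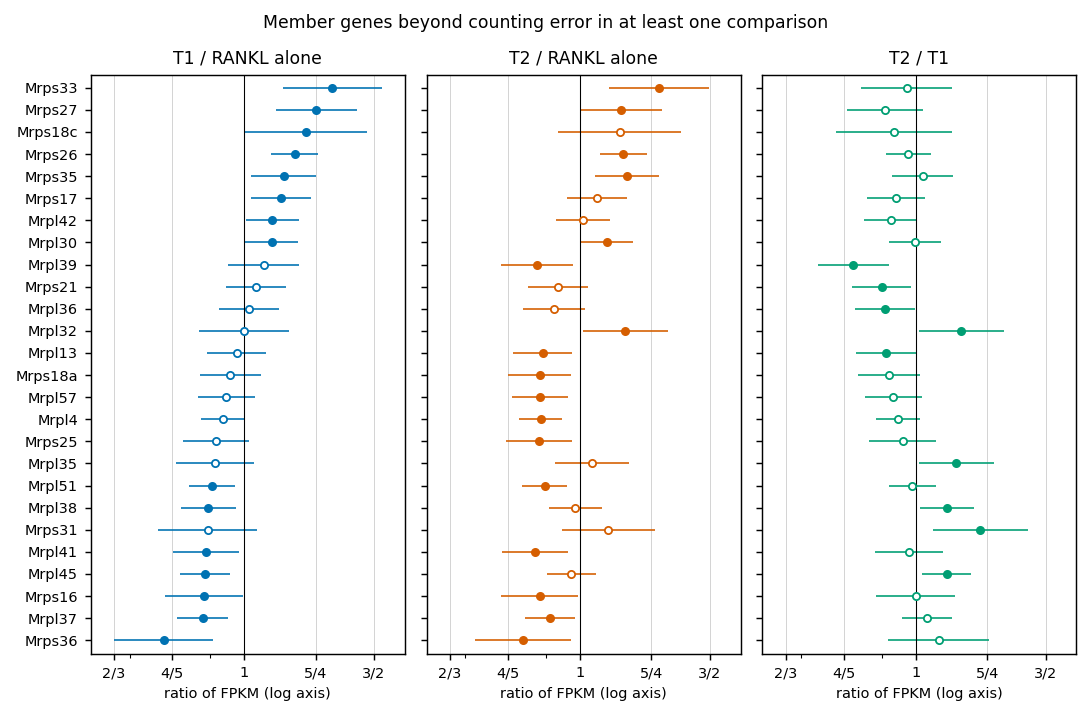
Ratio of FPKM (log axis) with exact 95% counting intervals for the 26 members beyond counting error in at least 1 of the 3 comparisons, in order of the T1 ratio. Filled points have intervals that leave out 1. All ratios lie between 0.779 and 1.32.

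The second comparison set the T2 library against RANKL alone. No member reached a log2 change of 1, beside 0.768% of all genes tested and 0.0421% of the protein-coding ones. The median change was -0.016, beside -0.0018 over all genes, with 36 members above 0 and 41 below. The members' summed reads, scaled to depth, stood at 0.985 (0.974 to 0.995) of RANKL alone, and those of all genes tested at 0.990. Of the members 6 (7.79%) were higher and 11 (14.3%) lower beyond counting error, beside 10.2% and 13.2% of all genes, which is again near the background.

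The sixth member higher in T2 was Mrpl32, a large-subunit protein known to need cleavage by a mitochondrial protease before it is built in. It had 4.99, 4.99 and 5.75 FPKM from 401, 417 and 502 reads. Its T2 ratio was 1.15 (1.01 to 1.32), and only T2 was high. Its neighbour Psma2, a proteasome subunit that starts 75 bases away, had a T2 ratio of 1.003 (0.945 to 1.06).

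Beside Mrps36, Mrpl37, Mrpl41, Mrpl51 and Mrps16, the members lower in T2 were Mrpl39, Mrps18a, Mrps25, Mrpl57, Mrpl4 and Mrpl13. Their T2 ratios ran from 0.875 to 0.891. Mrpl39, a large-subunit protein related to threonyl-tRNA synthetase, had 15.4, 16.3 and 13.4 FPKM, with a T2 ratio of 0.875 (0.781 to 0.980). T2 was its low library. Mrpl4, of the exit tunnel, had 41.2, 38.6 and 36.5 FPKM and a T2 ratio of 0.885 (0.827 to 0.947). Mrpl57 had 21.7, 20.5 and 19.2 FPKM and a T2 ratio of 0.883 (0.809 to 0.964). Mrpl55 had a similar ratio of 0.884, but its interval of 0.760 to 1.03 included 1. Of the exon bases of Mrps25 69.8% lie opposite Nr2c2, so its value is uncertain.

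The third comparison set T2 against T1. No member reached a log2 change of 1, beside 0.831% of all genes tested and 0.0737% of the protein-coding ones. The median change was -0.011, beside -0.0027 over all genes, with 29 members above 0 and 48 below, and the ratio of summed reads was 0.993 (0.983 to 1.004). Of the members 5 (6.49%) were higher and 4 (5.19%) lower, beside 7.93% and 10.1% of all genes. When libraries were rescaled to the same total FPKM the split was 10 higher and 1 lower. The members' median was then 0.020, beside 0.027 over all genes, whose shares under this scaling were not computed. The sign of the members' median and the split of calls therefore depend on the scaling. In both settings given the members' median lay below that of all genes.

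Mrps31, a small-subunit protein without a bacterial relative, had the highest T2 to T1 ratio, at 1.22 (1.06 to 1.42). It was measured at 6.56, 5.85 and 7.16 FPKM with RANKL alone, T1 and T2, and neither TSH library was set apart from RANKL alone. Mrpl32, Mrpl35, Mrpl38 and Mrpl45 followed at 1.15, 1.14, 1.10 and 1.10. Mrpl58, a peptidyl-tRNA hydrolase that also acts on stalled ribosomes, had a ratio of 1.11 (0.982 to 1.27), Mrpl49 of 1.11 (0.997 to 1.23) and Mrps18b of 1.11 (0.984 to 1.25), all with intervals that include 1.

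Mrpl39 had the lowest T2 to T1 ratio, at 0.823 (0.737 to 0.920). Mrps21, Mrpl36 and Mrpl13 were lower at 0.899 (0.819 to 0.986), 0.908 (0.826 to 0.997) and 0.911 (0.831 to 0.9995), and the calls of these 3 were lost when libraries were rescaled. Mrps27 had a ratio of 0.909 (0.807 to 1.02). Taken over the 3 comparisons, 51 of the 77 members (66.2%) were within counting error in each, beside 58.2% of the protein-coding genes past the filter. Within 1.1-fold of RANKL alone in both TSH libraries were 50 members (64.9%), beside 57.9%. Ratios to RANKL alone outside 1.25-fold were seen for 3 members, Mrps27, Mrps33 and Mrps36, and for 840 of the 9497 protein-coding genes (8.84%). No test of these differences was made.

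By subunit, 2 of 50 large-subunit members past the filter were higher and 5 lower in T1, and 2 higher and 8 lower in T2. Of 26 small-subunit members 6 were higher and 1 lower in T1, and 4 higher and 2 lower in T2. The median change in T1 was -0.023 for the large and 0.054 for the small subunit, and in T2 it was -0.024 and 0.029. Over all genes tested 10.8% were higher and 12.2% lower in T1, and 10.2% and 13.2% in T2. The large-subunit counts correspond to 4% higher and 10% lower in T1 and 4% and 16% in T2, and the small-subunit counts to 23.1% and 3.85% in T1 and 15.4% and 7.69% in T2. Nothing particular to a subunit is read from these shares. Of the 10 small-subunit members listed as added in the mitochondrial lineage 4 (40%) were higher in each TSH library, namely Mrps26, Mrps27, Mrps33 and Mrps35. The calls of Mrps33 depend on a copy described below. Lower among the 10 were 0 in T1 and 1 in T2. Of the 20 large-subunit members so listed 5 (25%) were lower in T1 and 6 (30%) in T2, with 1 and 0 higher.

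The balance of the subunits within a library does not depend on how libraries are scaled. Small-subunit reads were 0.399 (95% interval 0.392 to 0.406) of large-subunit reads with RANKL alone, 0.423 (0.416 to 0.430) in T1 and 0.416 (0.409 to 0.423) in T2. Against RANKL alone this is 1.06-fold (1.03 to 1.08) in T1 and 1.04-fold (1.02 to 1.07) in T2, and T2 against T1 it is 0.984-fold (0.961 to 1.01). Without the members that have a copy elsewhere the balance was 0.353, 0.373 and 0.371, and without those that share exon bases as well it was 0.372, 0.399 and 0.395. Both TSH libraries lay above RANKL alone each time, by amounts that 1 library per group cannot set against the spread between cultures.

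**Figure D4:**
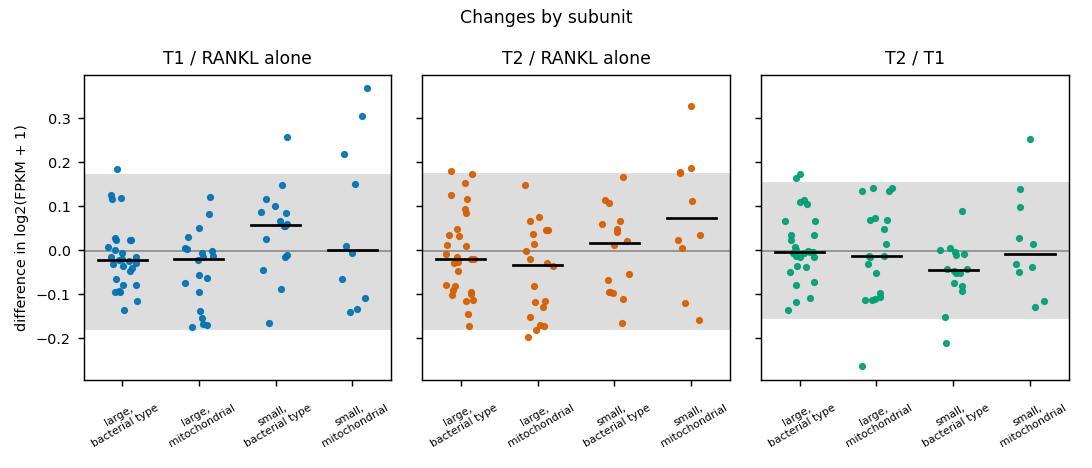
Difference in log2(FPKM + 1) of each member past the filter in the 4 subunit lists, with black bars at the list medians and grey bands from the 10th to the 90th percentile of all 11069 genes tested. Most members lie inside the band, and those above it in T1 are small-subunit genes apart from Mrpl22.

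Near-identical copies make some values uncertain. For 25 members another transcript elsewhere in the genome matched at 95% identity or more, and for 19 of them the copy held reads. For Mrpl19, Mrpl20, Mrpl33 and Mrpl35 the matches were only 127 to 142 bases long, to short noncoding RNAs. In several members, among them Mrps25 and Mrps18c, the copies held 1 read over the libraries. Mrps33 has the pseudogene Gm5776, with 124, 78 and 85 reads beside the gene's 287, 393 and 399. The pseudogene's ratio was 0.605 (0.450 to 0.810) in T1 and 0.631 (0.473 to 0.838) in T2, opposite in direction to the gene's. For gene and pseudogene summed, an alternative chosen after seeing the data, the ratios were 1.10 (0.964 to 1.26) and 1.08 (0.948 to 1.24), and both calls were lost. Whether reads were divided differently between the copies in the libraries was not tested. For Mrps18b and its pseudogene Gm13552, with 68, 47 and 45 reads, the summed T1 ratio was 0.879 (0.783 to 0.987). That of the gene alone was 0.906 (0.802 to 1.02), and that of Gm13552 0.665 (0.448 to 0.978). The pseudogene Mrpl48-ps, with 149, 114 and 144 reads, had a T1 ratio of 0.736 (0.571 to 0.945), whereas Mrpl48 had 1.03 (0.921 to 1.14). The copies of Mrps10 had a T1 ratio of 1.06 (0.799 to 1.41). Exon bases were shared with another gene in 33 members, on the same strand in 8 of them, and the largest shares after Mrpl53 were 77.8% in Mrps34 and 69.8% in Mrps25.

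**Figure D5:**
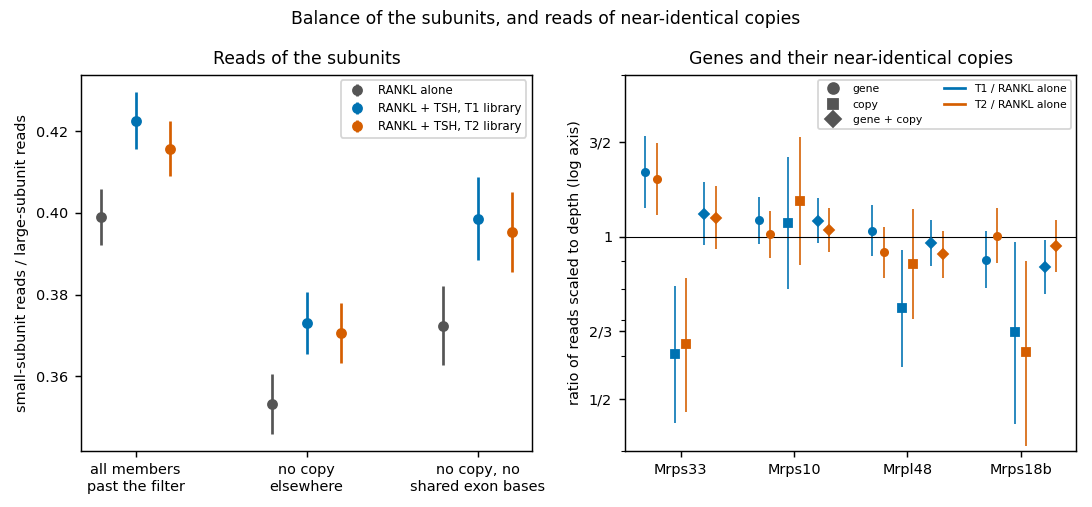
Left, small-subunit reads divided by large-subunit reads in each library for 3 sets of members, with exact 95% counting intervals; the vertical axis does not start at 0. Right, ratios of depth-scaled reads (log axis) for the 4 members whose copies held at least 50 reads with RANKL alone. Points are the gene, its copies and their sum. Mrps33 and its copy lie on opposite sides of 1, each beyond counting error. In T1 the copies of Mrpl48 and Mrps18b also lie below 1 beyond counting error.

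None of the other genes of mitochondrial translation listed here and past the filter reached a log2 change of 1. In T2 the summed reads, scaled to depth, were 1.06 (1.02 to 1.10) of RANKL alone for ribosomal proteins with other symbols. They were 0.995 (0.969 to 1.02) for assembly factors and 0.954 (0.933 to 0.975) for translation factors. For mitochondrial aminoacyl-tRNA synthetases they were 0.947 (0.927 to 0.967), beside 0.985 for the members. In T1 the sums were 1.05 (1.01 to 1.10) for the other symbols and 1.04 (1.01 to 1.06) for assembly factors. T1 sums were 0.979 (0.958 to 1.001) for translation factors and 0.988 (0.968 to 1.01) for the synthetases, beside 0.991 for the members. Of the 5 ribosomal proteins with other symbols, Ptcd3 was higher in T1, at 14.8, 16.4 and 15.7 FPKM with a ratio of 1.11 (1.04 to 1.19), and Gadd45gip1 higher in T2, at 6.64, 7.34 and 7.92 FPKM with a ratio of 1.19 (1.01 to 1.40). Chchd1, Dap3 and Aurkaip1 were within counting error in both, with ratios between 0.983 and 1.08. Among 14 translation factors none was higher or lower in T1. In T2 Tufm, the elongation factor that brings tRNAs to the ribosome, Gfm1 and Oxa1l were lower. These make up 21.4% of the list, beside 13.2% of all genes lower in T2. Tufm stood at 77.9, 75.1 and 71.0 FPKM, with a T2 ratio of 0.910 (0.862 to 0.961). Oxa1l, the insertase that receives new proteins from the ribosome, had a T2 ratio of 0.890 (0.835 to 0.949). Mtrf1l, a release factor, had a T1 ratio of 1.27 (0.997 to 1.62), and Taco1, an activator of translation, a T2 ratio of 1.19 (0.993 to 1.43).

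Over all genes tested 10.8% were higher and 12.2% lower in T1, and 10.2% and 13.2% in T2. Of 21 assembly factors 2 (9.52%) were higher and 0 lower in T1, and 2 higher and 2 lower (9.52% each) in T2. Mrm3, a methyltransferase of the large ribosomal RNA, had 5.99, 7.58 and 7.43 FPKM and T1 and T2 ratios of 1.27 (1.04 to 1.54) and 1.24 (1.02 to 1.51). Mrm1, another such methyltransferase, had 8.26, 8.23 and 6.19 FPKM, and its T2 ratio of 0.749 (0.643 to 0.873) was the lowest of the list. Tfb1m, which dimethylates the small ribosomal RNA, was higher in T1 at 1.25 (1.01 to 1.56). Of 17 mitochondrial aminoacyl-tRNA synthetases 1 (5.88%) was higher and 2 (11.8%) lower in T1, and 2 (11.8%) higher and 3 (17.6%) lower in T2. Lars2, for leucine, was lower in both TSH libraries, at 0.917 (0.883 to 0.951) and 0.881 (0.849 to 0.914). Fars2, for phenylalanine, was lower at 0.841 (0.738 to 0.959) and 0.863 (0.758 to 0.981), and Aars2, for alanine, was higher in T1 at 1.23 (1.05 to 1.45).

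Among 9 genes of mitochondrial transcription and DNA maintenance 2 were higher in T1 and 1 in T2, and none was lower. The higher ones are 22.2% and 11.1% of the list, beside 10.8% and 10.2% of all genes. Polg2, the accessory subunit of the mitochondrial DNA polymerase, had 0.868, 1.23 and 1.27 FPKM and T1 and T2 ratios of 1.42 (1.01 to 2.00) and 1.46 (1.05 to 2.05). Twnk, with a T1 ratio of 1.14 (1.03 to 1.27), lies beside Mrpl43, whose T1 ratio was 1.001 (0.915 to 1.10), and 33.4% of the exon bases of Mrpl43 are shared with it. Of 8 nuclear regulators 0 were called in T1, and in T2 Gabpb1 was higher at 1.13 (1.001 to 1.28) while Ppargc1b, a coactivator of mitochondrial genes, was lower at 0.877 (0.802 to 0.959). Myc and Yy1 were also lower in T2. That makes 12.5% of the list higher and 37.5% lower in T2, beside 10.2% and 13.2% of all genes. The list's median of 1542 reads with RANKL alone, against 728 for the members, makes smaller changes countable. Nrf1 had ratios of 1.08 (0.969 to 1.20) and 0.999 (0.897 to 1.11). Ppargc1a, the best known coactivator of these genes, was at 0 in every library.

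The RNAs that these proteins bind were lower in T1. mt-Rnr1, the ribosomal RNA of the small subunit, had 431, 367 and 396 FPKM, and T1 and T2 ratios of 0.853 (0.823 to 0.883) and 0.920 (0.889 to 0.952). mt-Rnr2, that of the large subunit, had 217, 198 and 224 FPKM, with ratios of 0.914 (0.880 to 0.950) and 1.03 (0.994 to 1.07). Per the labels the kit is for mRNA, and how far it captures these RNAs was not tested.

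Genes of the cytosolic ribosome are given for comparison. Of 73 of them past the filter 57 (78.1%) were higher and 5 (6.85%) lower in T1, with a median change of 0.095. In T2, 45 (61.6%) were higher and 6 (8.22%) lower, with a median of 0.046. Over all genes tested 10.8% were higher and 12.2% lower in T1, and 10.2% and 13.2% in T2. The medians of all genes were -0.0014 and -0.0018. The cytosolic genes' median of 11644 reads with RANKL alone, against 728 for the members, makes smaller changes countable. Medians and not counts can therefore be set side by side. Complex I, which holds products of the mitochondrial ribosome, had 35 nuclear genes past the filter, with medians of -0.040 in T1 and -0.060 in T2. In each, 9 of these genes (25.7%) were lower, beside 12.2% and 13.2% of all genes. Their median was 1202 reads with RANKL alone. No test of these differences was possible with 1 library per group.

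The cells carried osteoclast markers, Ctsk at 1337, 983 and 980 FPKM and Acp5 at 972, 857 and 822 FPKM. Of 8 osteoclast markers past the filter 5 were lower and 1 higher in T1, and 8 lower in T2. Their summed reads, scaled to depth, were 0.875 and 0.838 of RANKL alone. Over all genes tested 12.2% were lower and 10.8% higher in T1, and 13.2% and 10.2% in T2. The markers' median of 11125.5 reads with RANKL alone, against 728 for the members and 583 for all genes, makes smaller changes countable. These counts therefore cannot be set beside those of lists with fewer reads. Calcr was below the filter at 0.697, 0.412 and 0.321 FPKM. Of 4 macrophage markers past the filter, with a median of 7921 reads, 2 were higher and 2 lower in each TSH library (50% each). None of 6 osteoblast and fibroblast, 6 lymphocyte and 5 neutrophil markers passed the filter, and Cd3e, Cd4, Cd8a, Ms4a1, Ltf, Bglap and Col1a2 were at 0 in every library. The part of osteoclast content in the values of the members was not tested.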

How the data were processed

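The 3 libraries of RAW264.7 cells, 1 per group, were made with a SMARTer kit for mRNA from total RNA, per the labels' protocols. FPKM values were used as the authors deposited them, 1 column per library. The authors also deposited a gene length in bases, another quantity, which belongs to no library. The submitters' processing notes name the builds GRCm38 and mm10. Which aligner and counter were used, and how strand and shared reads were treated, is not given in the sources used here.

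Every FPKM above 0, multiplied by the length, was a whole multiple of 1 step (tolerance 0.01, 100% of values), which returned the reads: 16156926, 16809034 and 17390744. Ratios carry exact conditional (Clopper-Pearson) 95% intervals. They cover counting error alone, compare libraries and not conditions, and treat PCR copies as molecules. A change is the difference of log2(FPKM + 1), taken where the mean FPKM was 1 or more; the size rule asks for a log2 change of 1. The planned comparisons of 2 h and of 24 h appear under the column names T1 and T2, which give no hours.

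BLAST 2.17.0 searched GENCODE M21 transcripts of 200 bases or more for copies with 95% identity over 100 bases and over 50% of the shorter one. The named genes were Mrpl12, Mrps12, the 6 highest and 6 lowest members, per comparison the 6 largest rises and falls with at least 100 reads, members past the size rule or with opposite calls (0 of each), up to 3 genes of each outside list, and mt-Rnr1 and mt-Rnr2; others were named after their values were seen. The members and lists were chosen with earlier results of these data known. The closing section gives the alternatives tried. The functions were tested on simulated reads with known changes and counting error alone. Spread between cultures, shared exons and copies were not simulated. The software was Python 3.11.15 (numpy 2.4.6; pandas 2.3.3; scipy 1.17.1; matplotlib 3.10.9).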

Additional observations from a re-analysis of the deposited data

How the results depend on the processing

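Rescaling the libraries to the same total moved the most values. In T1 against RANKL alone the members' median change became -0.040, with 5 higher, 12 lower and summed reads at 0.974. In T2 against T1 the median became 0.020, with 10 higher, 1 lower and summed reads at 1.02. Under the same rescaling the median of all genes moved as well, to -0.024 in T1 and to 0.027 in T2 against T1. It moved by less than 0.1 in log2 under every scaling. The shares of all genes higher or lower after rescaling were not computed. Members without a copy elsewhere number 52. Among them T1 had 3 higher and 3 lower, T2 had 2 higher and 6 lower, and T2 against T1 had 3 higher and 3 lower. With the trend on gene length removed, T2 against T1 had a median of 0.0055 and 2 lower, and Mrpl20 and Mrpl49 were newly called higher. The other medians, counts and sums stayed within the limits set for a change under pseudocounts of 0.1 and 5, the filter removed or set at 5 FPKM, median-of-ratios scaling and a fold of 1.5, at which no member was past the size rule either. No member beyond counting error changed direction, but the median of T2 against T1 changed sign as given. Summing reads over copies, chosen after seeing the data, ended the T1 and T2 calls of Mrps33 and added a T1 call of Mrps18b. No paired analysis was possible because each group has 1 library. Precision was limited by intervals that reach a median of 0.15 in log2 to each side, and by the absence of replicate cultures.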
